A study of Mus musculus with 6 samples.

Results

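The genes described here are the 5 subunits of the transcription factor NF-κB (*Nfkb1*, *Nfkb2*, *Rela*, *Relb* and *Rel*) and 5 genes that restrain or redirect it (*Nfkbia*, *Nfkbie*, *Nfkbiz*, *Bcl3* and *Tnfaip3*). They were chosen by gene name, each name matched 1 row, and all 10 are among the 17589 genes, of 43346 in the table of counts, that had enough counts for a test. RNA-seq was performed on mouse adult fibroblasts (MAFs), primary cells grown from ear tissue of adult C57BL6/J females, in 3 control and 3 senescent samples. Control cells were sham irradiated. Senescence had been induced with 20 Gy of X-ray irradiation, followed by 21 days of culture. Both groups were grown at 3% oxygen, used between passages 3 and 8, and given 100 nM dexamethasone for 2 hours, and RNA was collected 12 hours later. Dexamethasone is a glucocorticoid, a class of steroid that dampens NF-κB activity, so no group was free of it and 1 time point was measured. It is not stated whether the replicates came from separate animals or cultures, and p-values therefore measure the spread between these samples, which may be technical.

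NF-κB is a family of dimers built from the 5 subunits. RELA, RELB and REL carry a domain that activates transcription, whereas NFKB1 and NFKB2 are made as long precursors that are trimmed to DNA-binding subunits without such a domain. In resting cells, inhibitor (IκB) proteins hold the dimers in the cytoplasm until the IκB kinase complex marks the inhibitors for destruction. Several of the genes that NF-κB then switches on encode its own inhibitors, which closes a negative feedback loop, and in senescent fibroblasts NF-κB is known for driving genes of the senescence-associated secretory phenotype (SASP).

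Of the 10 genes, some were higher and some lower in senescent cells. *Tnfaip3*, a ubiquitin-editing enzyme that shuts off signals on their way to NF-κB, rose 5.19-fold, and the IκB genes *Nfkbie*, *Nfkbia* and *Nfkbiz* rose 1.98-fold, 1.74-fold and 1.40-fold. *Bcl3*, a nuclear member of the IκB family, fell to 0.263 times its control level. Among the subunits, *Nfkb1* fell to 0.700 times its control level, *Relb* and *Nfkb2* rose 1.42-fold and 1.37-fold, and *Rela* and *Rel* did not pass the test. In all, 6 of the 10 genes were higher and 2 were lower when an adjusted p of 0.05 was the limit (quasi-likelihood test of edgeR, Benjamini-Hochberg adjustment over all genes tested). A large part of all genes differed between these groups, and 36.2% of all tested genes were called higher and 34.1% lower, and 70.3% were called in either direction. The values of the 3 senescent libraries lay entirely above those of the control libraries for 5 members and entirely below for 2, against 38.4% and 37.0% of all tested genes, or 75.3% in either direction. Senescent replicate 3 stood apart from the other senescent libraries: over all tested genes, its squared differences from replicates 1 and 2 were at the median 14 and 19.3 times those that counting noise gives, against between 1.79 and 4.02 times for the other pairs within a group. Values of members that rest on this library are therefore also given without it. In bulk RNA, fewer cells of a type and less RNA per cell cannot be told apart. The values of every library were plotted by group, in CPM, which are counts scaled to a common library size.

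**Figure D1:**
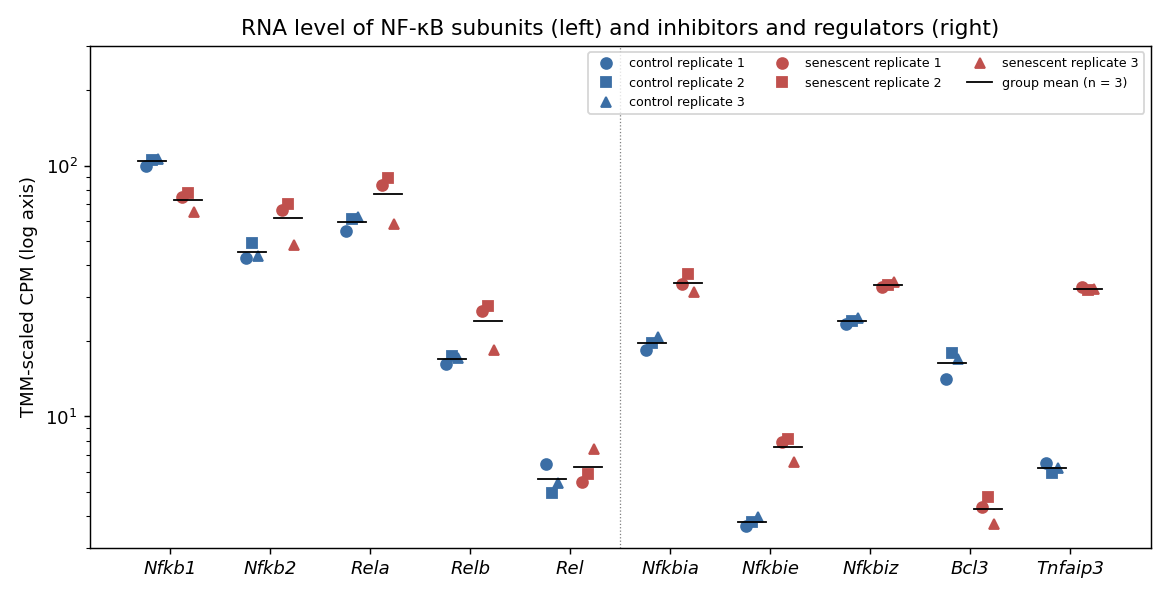
RNA level of each gene in each library, as CPM (counts scaled to a common library size with TMM factors) on a log axis, with control libraries in blue, senescent libraries in red, symbols for the replicate number and a line at the mean of 3 samples. *Tnfaip3* lies between 5.96 and 6.50 CPM in control and between 32.0 and 32.9 CPM in senescent cells, while senescent replicate 3 lies apart from replicates 1 and 2 for *Nfkb2*, *Rela* and *Relb*.

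The promoters of 7 of the 10 genes were present in the RefSeq set for GRCm38.p6, the assembly also called mm10, in 10 windows from 250 bases before to 50 bases after a RefSeq transcription start. *Nfkb1*, *Relb* and *Nfkbiz* had no window. The windows were searched on both strands for the κB consensus, the sequence class that NF-κB dimers bind. At least 1 match was found for 6 of these 7 genes, all but *Rela*, and in 8 of the 10 windows, against 8.46% of all 32851 windows. The stretches below are shown because they belong to genes that were called higher, lower and, for *Rel*, in neither direction, and because they place the matches relative to the start. They run from 170 bases to 1 base before the start, except for *Bcl3*, whose 30 bases span the start because its match begins at base 3 after it. They lie at chr19:46304567-46304736 (plus strand), chr11:23770970-23771139 (minus strand), chr12:55492648-55492817 (minus strand), chr17:45555530-45555699 (plus strand), chr10:19015411-19015580 (minus strand) and chr7:19822741-19822770 (minus strand), in the order of the lines. Each is written 5′ to 3′ on the strand of its gene, and capitals mark bases in a κB match, including overlapping matches.
Nfkb2: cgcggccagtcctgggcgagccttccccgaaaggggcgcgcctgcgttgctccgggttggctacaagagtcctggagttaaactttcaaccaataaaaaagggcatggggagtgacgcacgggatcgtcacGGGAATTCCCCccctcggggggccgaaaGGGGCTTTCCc
Rel: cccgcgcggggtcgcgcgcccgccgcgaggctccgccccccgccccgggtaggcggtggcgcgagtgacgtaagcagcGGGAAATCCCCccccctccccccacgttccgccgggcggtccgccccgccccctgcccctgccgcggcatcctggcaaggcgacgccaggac
Nfkbia: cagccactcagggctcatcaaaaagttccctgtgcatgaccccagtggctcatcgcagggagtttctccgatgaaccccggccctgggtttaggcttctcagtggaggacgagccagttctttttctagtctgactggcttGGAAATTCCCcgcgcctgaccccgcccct
Nfkbie: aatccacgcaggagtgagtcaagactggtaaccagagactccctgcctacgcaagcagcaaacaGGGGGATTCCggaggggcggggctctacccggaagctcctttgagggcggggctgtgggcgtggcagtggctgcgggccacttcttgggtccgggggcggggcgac
Tnfaip3: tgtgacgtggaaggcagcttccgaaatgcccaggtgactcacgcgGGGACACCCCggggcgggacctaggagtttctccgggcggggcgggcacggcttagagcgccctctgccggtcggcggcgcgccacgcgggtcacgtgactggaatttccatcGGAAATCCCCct
Bcl3: agttcagtcggcggcagGGGAAGTCCCgct

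*Bcl3*, which fell, and *Nfkbia*, *Nfkbie* and *Tnfaip3*, which rose, all hold a match in these windows, as does *Rel*, which did not pass the test. *Tnfaip3* has matches that begin 125 and 12 bases before the start, *Nfkbia* 29 bases before it and *Nfkbie* 106 bases before it. The span of *Tnfaip3* given with the counts reaches base 19015657, so its printed stretch lies inside that span. Positions in *Tnfaip3* therefore hold for the RefSeq start alone. In *Nfkb2*, a pair of overlapping matches begins 39 and 38 bases before the start and a further match 11 bases before it. *Nfkb2* has 3 windows, and its other starts, which are not printed, have matches that begin at base -236 and base 11 relative to the second start and at base -225 relative to the third, of which the last 2 are the same bases. The AP-1 site TGACTCA, searched on both strands, was found 136 bases before the start of *Tnfaip3* and 156 bases before that of *Nfkbie*, and 5.2% of all windows hold it. The E-box CACGTG, the site of the clock factor BMAL1, was found 33 bases before the start of *Tnfaip3* and in no window of the other 6 genes, against 7.15% of all windows. A match is a description of the letters and not a site of binding, and binding was not measured here.

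Among the inhibitors, *Tnfaip3* (ENSMUSG00000019850, chromosome 10 of mm10 from 19000910 to 19015657) had the largest difference of the 10 genes. It was at 6.50, 5.96 and 6.25 CPM in control replicates 1, 2 and 3 and at 32.9, 32.0 and 32.2 CPM in senescent replicates 1, 2 and 3. The groups lay far apart, and the senescent libraries were as close to each other as the control libraries. The log2 fold change was 2.38 (standard error, SE, 0.07, adjusted p = 7.97e-08, edgeR's quasi-likelihood test). *Tnfaip3* also moved up in rank: per kilobase, its level exceeded that of 27.3% of tested genes in control and 52.2% in senescent cells.

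*Nfkbia* (ENSMUSG00000021025, chromosome 12 from 55489411 to 55492647) encodes IκBα, the inhibitor that is lost and remade fastest after a stimulus. It was at 18.4, 19.6 and 20.8 CPM in the control libraries and at 33.8, 37.0 and 31.4 CPM in the senescent libraries. All senescent values exceeded all control values, and the log2 fold change was 0.80 (SE 0.09, adjusted p = 8.24e-05, same test). *Nfkbie* (ENSMUSG00000023947, chromosome 17 from 45555716 to 45563169) encodes IκBε, a slower inhibitor of the same kind. Control libraries had 3.65, 3.78 and 3.98 CPM and senescent libraries 7.88, 8.14 and 6.60 CPM, again without overlap. Its log2 fold change of 0.99 (SE 0.11, adjusted p = 0.000103, same test) had a 95% interval from 0.73 to 1.24.

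*Nfkbiz* and *Bcl3* encode IκB proteins that act in the nucleus, where they bind dimers of NFKB1 or NFKB2 on DNA and can raise or lower transcription. *Nfkbiz* (ENSMUSG00000035356, chromosome 16 from 55811375 to 55838899) was at 23.5, 24.1 and 24.7 CPM in control and at 32.7, 33.5 and 34.5 CPM in senescent cells. The groups did not overlap, and the coefficients of variation were 2.51% in control and 2.57% in senescent cells. The log2 fold change was 0.48 (SE 0.06, adjusted p = 0.000215, same test). *Bcl3* (ENSMUSG00000053175, chromosome 7 from 19808462 to 19822770) went the other way, from 14.2, 17.9 and 16.9 CPM in control to 4.37, 4.77 and 3.74 CPM in senescent cells. Every senescent value was under every control value, with a log2 fold change of -1.93 (SE 0.13, adjusted p = 5.69e-06, same test). Per kilobase, *Bcl3* exceeded 58.3% of tested genes in control and 35.8% in senescent cells. An antisense gene that shares 161 exon bases with *Bcl3*, *Gm16175*, had 0 counts in all libraries.

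By the limit of the study's methods, an unadjusted p under 0.05 with an absolute log2 fold change over 1, *Tnfaip3* was called higher and *Bcl3* lower, and no subunit was called. Of all tested genes, 17.8% were called higher and 12.3% lower by this limit, 30.1% in either direction. *Nfkbie* lay just under it, and its log2 fold change was 1.08 without senescent replicate 3.

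Among the subunits, *Nfkb1* (ENSMUSG00000028163, chromosome 3 from 135584655 to 135691547) was the one that fell. It was at 99.9, 105.7 and 106 CPM in the control libraries and at 75.2, 77.9 and 65.2 CPM in the senescent libraries. The groups did not overlap, and the log2 fold change was -0.52 (SE 0.08, adjusted p = 0.000526, same test). The gene stayed lower in each of 14 alternative analyses, with log2 fold changes from -0.63 to -0.43.

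*Relb* and *Nfkb2* encode the pair that works together in the slower, noncanonical branch of the pathway. *Relb* (ENSMUSG00000002983, chromosome 7 from 19606217 to 19629438) was at 16.2, 17.4 and 17.1 CPM in control and at 26.4, 27.6 and 18.4 CPM in senescent cells, with a log2 fold change of 0.51 (SE 0.15, adjusted p = 0.0154, same test). *Nfkb2* (ENSMUSG00000025225, chromosome 19 from 46304737 to 46312090) was at 42.7, 49.0 and 43.6 CPM in control and at 66.8, 70.1 and 48.4 CPM in senescent cells. In both genes senescent replicates 1 and 2 lay well above the control libraries, whereas replicate 3 lay just above them for *Relb* and among them for *Nfkb2*. The log2 fold change of *Nfkb2* was 0.45 (SE 0.14, adjusted p = 0.0184, same test). The call of *Relb* was lost without control replicate 1 (adjusted p = 0.0558) or senescent replicate 1 (0.0516), and that of *Nfkb2* without control replicate 1 (0.0663), control replicate 3 (0.0671), senescent replicate 1 (0.0591) or senescent replicate 2 (0.0549), all by the same test. Without senescent replicate 3, their log2 fold changes were 0.68 and 0.61. *Nfkb2* shares 299 exon bases on the opposite strand with *Psd*, which had between 40 and 113 counts per library against at least 2132 for *Nfkb2*.

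*Rela* (ENSMUSG00000024927, chromosome 19 from 5637483 to 5648130), the main activating subunit in most cells, was at 54.8, 61.1 and 62.5 CPM in control and at 83.6, 89.0 and 58.6 CPM in senescent cells. Senescent replicates 1 and 2 exceeded every control library, and senescent replicate 3 fell inside the control range. With all 6 libraries, the log2 fold change of 0.37 (SE 0.15, 95% interval from 0.03 to 0.72) did not pass the threshold (adjusted p = 0.0516, same test). Without senescent replicate 3 it was 0.55 (SE 0.05, adjusted p = 3.20e-07, same test). *Rela* also passed the threshold with RLE scaling (0.0408), scaling by library size alone (0.0237) and at least 10 counts in every library (0.0381). It passed as well with DESeq2 (0.0169), edgeR's exact test (0.0249) and a term for GC content (5.21e-07), where each value is an adjusted p. It did not pass without a filter (0.129), with a replicate term (0.0707), or without control replicate 1 (0.157), 2 (0.101) or 3 (0.091). Nor did it pass without senescent replicate 1 (0.14) or 2 (0.1505), all adjusted p of edgeR's quasi-likelihood test.

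*Rel* (ENSMUSG00000020275, chromosome 11 from 23741514 to 23770970), a subunit best known from lymphoid cells, had the lowest level of the 5 also per kilobase. It was at 6.48, 4.95 and 5.44 CPM in control and at 5.48, 5.92 and 7.43 CPM in senescent cells, so the groups overlapped, with senescent replicate 3 the highest library. A difference was not detected, and the 95% interval of the log2 fold change ran from -0.18 to 0.51 (adjusted p = 0.347, same test). Fold changes of all 10 genes, with their intervals, were set beside those without senescent replicate 3 and with a term for GC content.

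**Figure D2:**
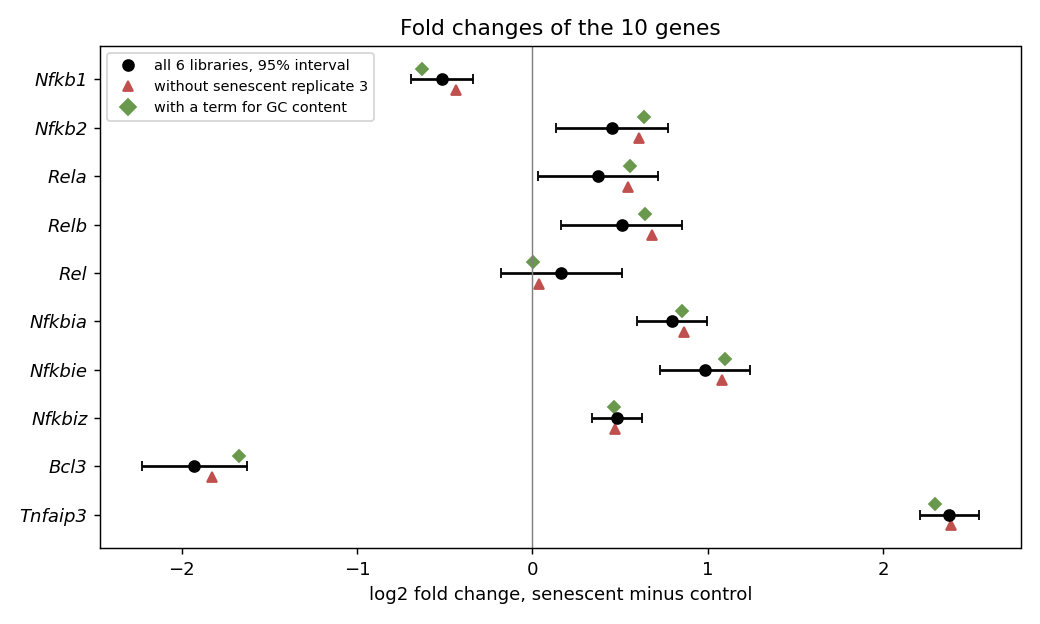
Log2 fold change of each gene (senescent minus control), with its 95% interval from all 6 libraries (black), without senescent replicate 3 (red triangles) and with each library's dependence on GC content fitted (green diamonds). The intervals of *Rela* and *Relb* start at 0.03 and 0.17, and both alternatives lie between 0.55 and 0.68 for these genes, while the values of *Tnfaip3* lie between 2.29 and 2.39.

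Senescent replicate 3 departed from the other senescent libraries by an amount that changed with the GC content of genes. Over all genes tested with a GC value, its median log2 ratio to replicates 1 and 2 was 0.25 in the GC quintile with the lowest content and -0.37 in the quintile with the highest. *Rela* and *Nfkb2*, whose longest transcripts each have 59.4% GC, were at -0.55 and -0.50, and *Relb*, with 56.8% GC, was at -0.54. *Rel*, with 42.5% GC, was at 0.35. *Nfkb1*, with 44.9% GC, was at -0.23, on the other side of 0 from the median of its quintile, 0.14. *Tnfaip3* and *Nfkbiz*, with 47.1% and 50.1% GC, were at -0.01 and 0.06. With a spline of GC content fitted in each library, chosen after these results had been seen, the log2 fold changes of *Rela*, *Nfkb2* and *Relb* were 0.55, 0.64 and 0.64, and that of *Rel* was 0.0058. No member changed direction, and *Nfkb1* remained lower at -0.63.

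**Figure D3:**
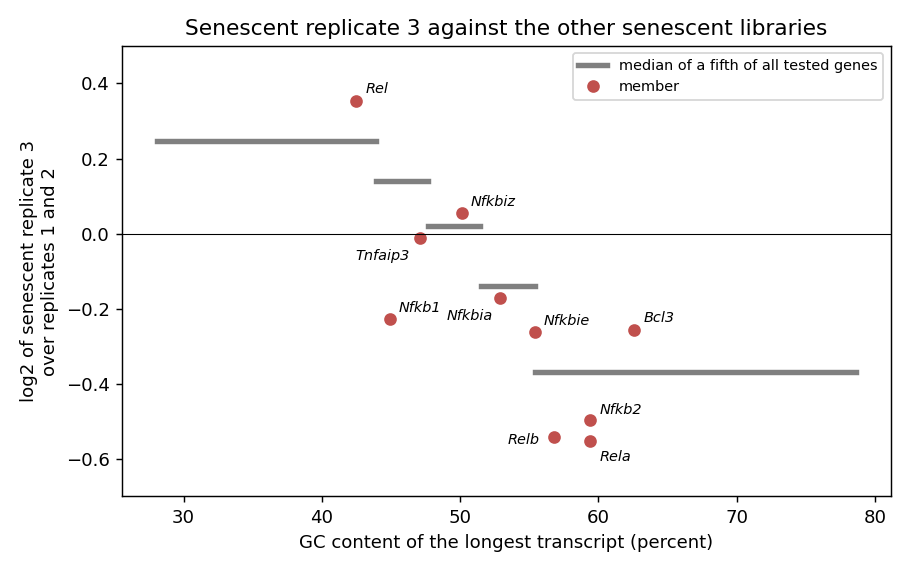
Log2 ratio of senescent replicate 3 to the mean of senescent replicates 1 and 2 against the GC content of each gene's longest transcript, for the 10 genes (red points) and as the median of each GC quintile of all tested genes (grey bars spanning the quintile's range). The grey bars step down from 0.25 to -0.37, and *Rela*, *Nfkb2* and *Relb* lie at or below -0.50.

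Levels of different genes were compared per kilobase, with the gene length given beside the counts. In control cells, *Rela* and *Nfkb1* led at 21.9 ± 1.52 and 21.8 ± 0.752 CPM per kb (SD, n = 3), and their ranges overlapped. *Nfkb2* (13.7 ± 1.03) and *Nfkbia* (12.4 ± 0.754) followed and also overlapped, and below them *Bcl3*, *Nfkbiz*, *Relb*, *Rel*, *Nfkbie* and *Tnfaip3* came in this order, from 6.57 ± 0.779 to 0.863 ± 0.0373 CPM per kb, each apart from its neighbours. In senescent cells, *Rela* (28.4 ± 5.96), *Nfkbia* (21.6 ± 1.79), *Nfkb2* (18.8 ± 3.56) and *Nfkb1* (15.2 ± 1.40) were the highest, and each overlapped with the next. *Nfkbiz* and *Relb* (6.69 ± 0.172 and 6.21 ± 1.29) overlapped, followed by *Tnfaip3* (4.48 ± 0.0630), *Nfkbie* (3.11 ± 0.341), *Rel* (2.24 ± 0.365) and *Bcl3* (1.73 ± 0.208), each apart from the next. *Bcl3* went from rank 5 to rank 10 and *Tnfaip3* from rank 10 to rank 7, and both kept these ranks when the longest coding length was used in place of the gene length, although *Bcl3* then overlapped with *Nfkbiz* in control and with *Rel* in senescent cells, and *Tnfaip3* with *Relb* in senescent cells.

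As a share of the summed CPM per kb of the 5 subunits, *Nfkb1* made up 34.5%, 33.6% and 34.3% in the control libraries and 20.8%, 20.5% and 23.8% in the senescent libraries. *Rela* went from 34.3% ± 1.09 to 39.8% ± 1.91, *Nfkb2* from 21.5% ± 1.12 to 26.4% ± 0.676 and *Relb* from 6.83% ± 0.0398 to 8.72% ± 0.407 (SD, n = 3). For these 4 subunits the shares of the groups did not overlap, with senescent replicate 3 included. The share of *Rel* was 3.17% ± 0.585 in control and 3.29% ± 1.16 in senescent cells, within the spread of either group. The log2 ratio of *Nfkb2* to *Nfkb1* per kilobase was -0.67 ± 0.09 in control and 0.29 ± 0.16 in senescent cells, so *Nfkb1* was the higher in every control library and *Nfkb2* in every senescent library. This order held per gene length; per coding length, *Nfkb1* was the higher in every library of both groups. The log2 ratio of *Nfkbia* to *Rela* was -0.82 ± 0.03 in control and -0.37 ± 0.22 in senescent cells, and that of *Relb* to *Rela* was -2.33 ± 0.05 and -2.19 ± 0.01, both without overlap. For each of these 7 quantities, the share of *Rel* aside, an exact two-sided permutation test gave p = 0.1, the smallest that 3 samples against 3 allow (0.114 after Benjamini-Hochberg adjustment over 8 quantities). The shares of 1 library sum to a whole, so they are not independent of each other. The summed level itself was 63.7 ± 2.80 CPM per kb in control and 70.8 ± 11.9 in senescent cells (exact permutation p = 0.4). Senescent replicates 1 and 2, at 75.6 and 79.6 CPM per kb, exceeded every control library (60.5 to 65.8), and replicate 3, at 57.3, was under every one. The difference of 7.10 CPM per kb was 13.9 without senescent replicate 3, 4.73 without senescent replicate 1 and 2.72 without senescent replicate 2.

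**Figure D4:**
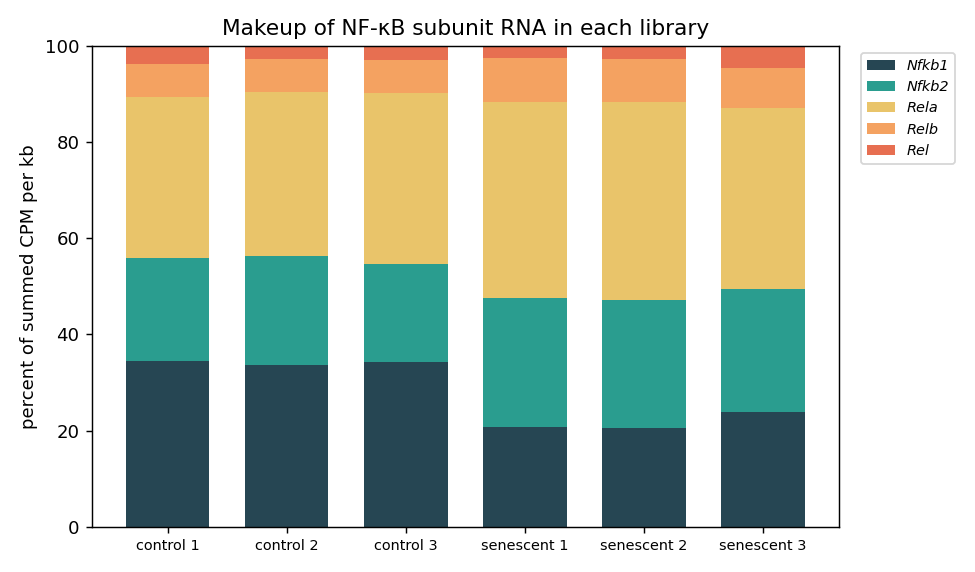
Percent of the summed CPM per kb of the 5 subunit genes taken by each, as stacked bars for each of the 6 libraries. *Nfkb1* takes between 33.6% and 34.5% in control and between 20.5% and 23.8% in senescent libraries, and *Rela*, *Nfkb2* and *Relb* take larger shares in the senescent libraries.

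Other genes of the pathway, its targets and the glucocorticoid targets below were taken from lists chosen with earlier results of these data known. Of 17 further IκB proteins and feedback regulators, all tested, 6 were higher and 3 lower, with a median log2 fold change of 0.10, where the median over all tested genes was 0.0085 and 36.2% were called higher and 34.1% lower. The count of higher genes is thus near that background. *Nfkbib*, which encodes IκBβ, had a mean of 9.26 ± 1.33 CPM over control and 9.93 ± 2.69 CPM over senescent libraries (SD, n = 3) and did not pass the test. *Rnf11* and *Otud7b*, partners or relatives of *Tnfaip3* in removing ubiquitin signals, rose by 1.41 and 0.56 on the log2 scale. *Tnip3*, which encodes a protein that binds the *Tnfaip3* product, was nearly absent from control libraries, with 0, 0 and 1 counts, and reached 30, 38 and 50 counts in senescent libraries. *Pdlim2* and *Commd1*, which promote degradation of RELA, and *Tnip1* had log2 fold changes of -0.91, -0.45 and -0.62 (adjusted p from 0.000266 to 0.0116, edgeR's quasi-likelihood test).

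Of 31 genes for the IκB kinases and the signaling above them, 12 were called higher and 13 lower (median log2 fold change -0.04), in shares near the 36.2% and 34.1% of all tested genes. Within the kinase complex that acts on the inhibitors, *Ikbkg*, which encodes the scaffold NEMO, rose from 77.2 ± 1.01 to 153 ± 11.7 CPM, *Chuk* (IKKα) rose from 61.9 ± 1.70 to 83.4 ± 11.6 CPM, and *Ikbkb* (IKKβ) was at 53.2 ± 1.26 and 54.7 ± 3.65 CPM (SD, n = 3), without passing the test. *Ikbkg* overlaps *G6pdx* on the opposite strand, and without a stated strand setting reads of both may have been mixed. *Map3k14*, the kinase of the noncanonical branch, was at 15.2 ± 1.37 and 16.9 ± 4.18 CPM and did not pass the test (log2 fold change 0.15). Senescent replicates 1 and 2 were at 19.3 and 19.4 CPM, above every control library, and replicate 3 at 12.1 CPM, and without replicate 3 the log2 fold change was 0.35 (adjusted p = 0.000432, edgeR's quasi-likelihood test). *Traf3*, the adaptor that marks this kinase for degradation, rose by 0.60 on the log2 scale. *Traf1* rose by 1.35 on the log2 scale. The interleukin-1 receptor gene *Il1r1*, the IκB kinase-related gene *Ikbke* and the adaptor *Tab2* fell, with log2 fold changes of -1.12, -1.05 and -0.74.

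Of 34 textbook target genes of NF-κB, 30 were tested, and senescent cells had more RNA of 27 and less of 1 (median log2 fold change 1.95). The genes below the filter were *Tnf*, *Il1a*, *Il1b* and *Bcl2a1b*, with at most 7 counts in any library of either group. Over all tested genes, 36.2% were called higher and 34.1% lower, with a median of 0.0085. Targets such as *Ccl20*, *Cd40*, *Csf2* and *Nos2*, near 0 counts in control cells, passed the filter only through the senescent libraries. Their direction was therefore fixed in advance, and the count of 27 includes them. With at least 10 counts required in every library, 19 targets were called higher and 1 lower. By the limit of the study's methods 19 of the 27 were called, the genes near 0 counts in control cells included, where 17.8% of all tested genes were called higher. The median of the targets was 1.82 with the 4 genes near 0 counts in control cells set to their bound, against 3 counts in each control library. *Mmp3*, *Cfb* and *Ccl2* had log2 fold changes of 5.51, 3.11 and 2.73, and *Irf1*, which encodes an interferon regulatory factor, was the gene that fell, at -0.88. Over the 10 members the median was 0.47, with 0.37 over the subunits and 0.80 over the inhibitors and regulators. Several members are textbook targets themselves, *Nfkbia*, *Tnfaip3*, *Nfkbie*, *Nfkb2*, *Relb* and *Bcl3* among them.

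**Figure D5:**
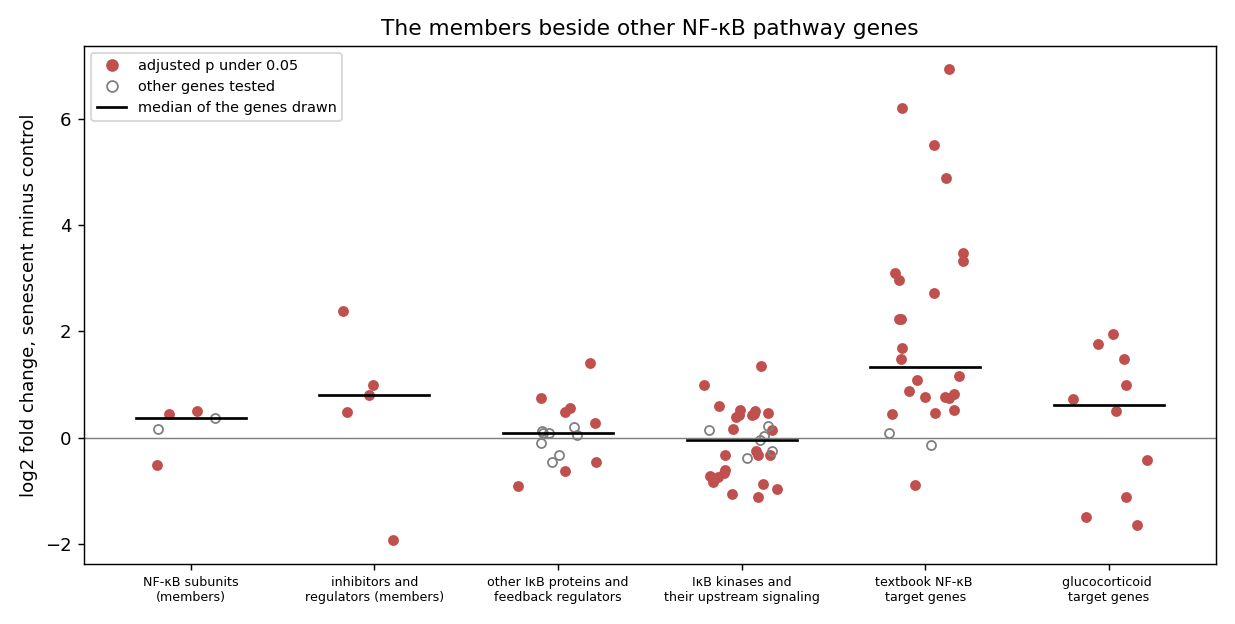
Log2 fold change (senescent minus control) of each tested gene in the member groups and in the 4 other gene lists, with genes at an adjusted p under 0.05 filled, other tested genes open and a line at the median of the genes drawn; 5 genes near 0 counts in control cells are left out. Most textbook target genes lie above 0, whereas the IκB kinases and upstream genes spread to both sides of 0.

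Glucocorticoid targets were examined because *Nfkbia* is one of them in many cells. All 10 genes of this list passed the test, 6 higher and 4 lower. Of all tested genes, 70.3% were called, 36.2% higher and 34.1% lower. *Fkbp5*, *Zbtb16* and *Per1* fell, with log2 fold changes of -1.64, -1.49 and -1.11, while *Dusp1*, *Errfi1* and *Sgk1* rose by 1.96, 1.76 and 0.99. Their part in the difference of *Nfkbia* was not tested.

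The labels were checked against marker genes. *Cdkn1a* and *Cdkn2a*, which encode the cell cycle inhibitors p21 and p16, rose, the first from 123 ± 2.01 to 620 ± 16.3 CPM (SD, n = 3) and the second from at most 1.27 CPM in control to at least 2.86 CPM in senescent libraries, and *Mki67* fell, with a log2 fold change of -5.94. All 10 fibroblast markers were tested, with a summed level between 21500 and 24000 CPM in control and between 6990 and 8400 CPM in senescent libraries. Of these markers, 3 were higher (*Dcn*, *Thy1* and *Lum*, with log2 fold changes of 3.50, 1.47 and 0.85) and 6 were lower, among them *Col1a1*, *Col1a2*, *Col3a1* and *Col6a1*, which with *Vim* make up most of the sum in control cells. The summed level of 9 macrophage markers lay between 9.04 and 9.69 CPM in control and between 20.1 and 22.7 CPM in senescent libraries, with 7 of the 8 tested higher, and *Tyrobp* below the filter. For 10 lymphocyte markers, of which *Ptprc* alone was tested, it lay between 0.184 and 0.301 CPM and between 1.63 and 1.82 CPM, with *Nkg7* at 0 counts in every library. For endothelium, the sum went from between 81.2 and 85.1 CPM to between 15.5 and 16.4 CPM, with *Erg* lower and the other 5 of 6 tested genes higher. *Erg* alone lay between 78.6 and 82.6 CPM in control and between 7.33 and 7.65 CPM in senescent libraries, so it made up most of the control sum. For keratinocytes, the sum went from between 15.9 and 16.7 CPM to between 28.6 and 29.1 CPM, with 2 of 5 tested genes higher and 1 lower. The part of such cells in the values of *Rel*, *Tnfaip3* or the other members was not tested. Total counts lay between 50288454 and 82229553 per library, and the member with the fewest counts in a library, *Nfkbie*, had 182.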

How the data were processed

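RNA-seq counts of 3 control and 3 senescent MAF samples were analysed. The authors mapped paired reads of 100 bases to mm10 with STAR in MAPRSeq and made a table of raw, unnormalized counts with Subread. The deposited counts stand beside a gene length in bases whose derivation is not given in the sources used here. Strand setting and the treatment of multi-mapped reads are not given in the sources used here either.

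Groups came from sample titles. Genes were kept by filterByExpr, scaled by TMM and compared with edgeR's robust quasi-likelihood test (edgeR 4.0.16, R 4.3.3, two-sided, group as the only term), with Benjamini-Hochberg adjustment over all genes tested. CPM are counts over TMM-scaled library sizes. Intervals cover 95%. The test was checked on counts simulated with a common dispersion and no library set apart, unlike these data. It called 43 of 100 genes changed by 0.5 on the log2 scale and 90 of 97 genes changed by 1. It also called 3 unchanged genes. Shares and ratios were compared by exact permutation tests over samples. Alternatives were RLE or no composition scaling, other filters (none, or at least 10 counts in every library), DESeq2 1.42.0, edgeR's exact test, a replicate term, each library left out and, chosen after seeing the data, a spline of GC content of the longest GENCODE M21 transcript. Members and lists were chosen with earlier results of these data known. Named were all members, up to 3 genes per direction of each list by smallest p, and *Chuk*, *Ikbkb*, *Ikbkg*, *Map3k14*, *Nfkbib*, *Cdkn1a*, *Cdkn2a* and *Mki67*. *Tyrobp*, *Ptprc*, *Nkg7*, *Erg*, *Dcn*, *Thy1*, *Lum*, *Vim*, *Psd*, *Gm16175*, *G6pdx* and the collagen genes were named after their values had been seen. So were *Ccl20*, *Cd40*, *Csf2*, *Nos2*, *Il1a*, *Il1b*, *Tnf*, *Bcl2a1b*, *Ivl*, *Dsp*, *Trp63*, *Krt5* and *Krt10*. Reads carried no molecular identifiers, so counts are not independent molecules.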

Additional observations from a re-analysis of the deposited data

How the results depend on the processing

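The calls of *Tnfaip3*, *Bcl3*, *Nfkb1*, *Nfkbia*, *Nfkbie* and *Nfkbiz* held in all 14 alternatives. The number of members called higher lay between 4 and 7 and that called lower was 2 throughout, with each library left out in turn included. *Nfkb2*, *Relb* and *Rela* changed side with 1 library left out or another scaling or test, as given with their values. By the limit of the study's methods, 2 members in place of 1 were higher with RLE scaling, scaling by library size alone, at least 10 counts in every library, DESeq2 or the GC term, and 1 or 2 with each library left out. *Nfkbie* was the added gene. By that limit, 5194 genes of all were higher without a filter and 1724 with at least 10 counts in every library, against 3134. Of the textbook targets, 19 genes were higher in place of 27 with at least 10 counts in every library. Between 26 and 28 were higher in the other alternatives run on that list. In the same list, 2 genes were lower in place of 1 with the GC term, and between 1 and 2 with each library left out. With coding length, the share of *Relb* differed by 2.80 percentage points between the groups in place of 1.88. The difference in the share of *Rel*, 0.125 percentage points, lay between -0.54 and 0.47 with each library left out (-0.11 without control replicate 2, -0.54 without senescent replicate 3). *Nfkbib*, not called, had a log2 fold change of -0.018 without control replicate 1 and -0.071 without senescent replicate 2, against 0.10, and was called higher without senescent replicate 3 (0.31) and with the GC term (0.27). The cause of these shifts was not tested.

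Deviations of same-numbered libraries from their group means correlated at -0.374, 0.293 and -0.263 for numbers 1, 2 and 3. The largest value was 0.501, for control replicate 1 with senescent replicate 3. Because senescent replicate 3 stood apart, these values cannot decide whether replicate numbers pair the samples. With a replicate block, 5964 genes were higher and 5660 lower, against 6360 and 6005, and 6 members higher and 2 lower. It changed no call among the members.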
